A study of Xenopus tropicalis with 52 samples.

Results

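Bone morphogenetic protein (BMP) inhibition was added to Nodal inhibition in late blastula embryos of the frog Xenopus tropicalis, and polyadenylated RNA of whole embryos was sequenced. The comparison holds 6 of the 52 samples of the series, 3 libraries called Nodal-LOF (loss of function) and 3 called Nodal-BMP-LOF, all at stage 9+. They are part of a set of 24 libraries at that stage, 3 in each of 8 groups. Of the 24, 12 were from embryos without the β-catenin morpholino. The rest were from embryos injected as zygotes with 5 ng of it, which blocks canonical Wnt signalling. Both groups of the comparison were uninjected, out-bred wild-type Nigerian embryos. They were kept from the 8-cell stage onward in 100 µM SB431542, which blocks the type I receptors for Nodal and activin ligands. Nodal-BMP-LOF embryos received in addition 10 µM LDN193189, which blocks the type I receptors for BMP ligands, so the groups differ by LDN193189 alone. Libraries were paired by replicate number, taken here as the clutch, though the methods do not tie the number to a clutch in words. Each library was made from 10 to 15 pooled embryos. The inhibitors were added to the medium of whole embryos, and no measure of receptor or Smad activity was analysed here.

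BMP ligands bind paired receptors whose activated form phosphorylates Smad1, Smad5 and Smad9. These join Smad4 in the nucleus and raise direct targets, among them the id and ventx transcription factors and the feedback inhibitors bambi, smad6, smad7 and sizzled (szl). In the frog blastula and gastrula, BMP activity promotes ventral mesoderm and epidermis, and secreted antagonists from the Spemann organizer, such as Chordin and Noggin, hold it down so that neural tissue can form. Nodal ligands act through Smad2 and Smad3 and induce mesoderm, endoderm and the organizer, so Nodal-LOF embryos lack most of the source of these antagonists.

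The Nodal inhibitor was seen in the RNA of both groups. Of the organizer and mesendoderm genes, cer1 in Nodal-LOF stood at 0.975% of the mean in DMSO (vehicle) embryos, otx2 at 2.38%, gsc at 5.99%, lhx1 at 6.02% and lefty at 10.2%. In Nodal-BMP-LOF the same genes stood at 1.15%, 5.4%, 7.66%, 9.84% and 17.1%. The 6 libraries held 34176526 to 39152760 exon counts and 1440877 to 1648329 intron counts, so introns carry far less depth. No library looked like a copy of another: the squared difference between replicates was 11.3 to 27.7 times the counting noise.

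The number of genes that passed depended on which libraries set the spread. In the fit of all 24 stage 9+ libraries with the replicate number as a block, 0 of 16001 genes passed an adjusted p of 0.1 on exons (edgeR quasi-likelihood test, background 0%), with 687 at an unadjusted p under 0.05. In the fit of the 6 libraries alone, again with the block, 1786 of 14639 genes passed (12.2%), 995 lower in Nodal-BMP-LOF (6.8%) and 791 higher (5.4%). The biological coefficient of variation was 12.8% over the 24 libraries and 4.67% over the 6, on 14 and 2 residual degrees of freedom. Over the 12 libraries without the morpholino it was 6.2%, on 6 residual degrees of freedom. A DESeq2 likelihood ratio test of the 6 libraries passed 680 of 22961 genes, 349 lower and 331 higher. The 6-library count was 849 of 14816 without replicate 1 (460 lower, 389 higher) and 713 of 14874 without replicate 2 (368 lower, 345 higher). It was 1661 of 14880 without replicate 3 (909 lower, 752 higher), and without the block it was 0. Counts of list members in those fits and by DESeq2 are to be read beside these. In what follows, "called" means an adjusted p of at most 0.1 in the 6-library edgeR fit with the block, and every gene so called had an adjusted p above 0.1 in the 24-library fit. Of the 4 genes with the lowest p there, fzd4, which encodes a Wnt receptor, had normalized exon counts of 3168, 2008 and 2618 (Nodal-LOF) against 4672, 3831 and 4796 (Nodal-BMP-LOF). All Nodal-BMP-LOF libraries were above all Nodal-LOF libraries for this gene, at a log2 fold change of 0.78 ± 0.06 (SE), yet its adjusted p over the 24 libraries was 0.492.

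Changes were small. The median absolute log2 fold change of the called genes was 0.22, and 32 of those called lower and 82 of those called higher passed 1.5-fold. The change had the same sign in all 3 pairs for 982 of the 995 genes called lower and 774 of the 791 called higher. The calls rest on the same pairs, so this is no separate check on them. Of all 16001 genes, 21.1% were lower in 3 of 3 pairs and 21.1% were higher in 3 of 3, which applies to each single gene so described below. The groups seldom separated outright: the 3 Nodal-BMP-LOF libraries lay all below the 3 Nodal-LOF libraries for 2.92% of the 16001 genes and all above them for 2.43%. In exact permutation tests of a single gene, 3 libraries against 3 could not go below a p of 0.1 and 3 pairs could not go below 0.25.

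BMP target and feedback genes were lower as a group. Of 18 listed, 14 were tested, 10 were called lower against a background of 6.8% and 0 were called higher. The median log2 fold change of the 14 was -0.25, beside 0 for all genes tested. The remaining 4 names were id4, which passed the filter over the 24 libraries alone and held at most 21.1 normalized counts in the 6 libraries, smad6.2, at most 2.8, and id1 and smad6.1, which matched no symbol. The 10 were id2, id3, bambi, smad7, szl and 5 of the 6 measured ventx genes. On exons the 3 Nodal-BMP-LOF libraries lay all below the 3 Nodal-LOF libraries for 0 of 15 targets measured over the 24 libraries. The share over all genes was 2.92%. Without replicate 1, 2 or 3 the count called lower was 7, 10 and 8, and DESeq2 called 8. Without replicate 3, 1 target was called higher, ventx3.2 at 0.42 (edgeR, adjusted p = 0.0733). In these whole-embryo samples, fewer cells of a type and less RNA per cell cannot be told apart. The members of this and the other gene lists were chosen with earlier results of these data known. List counts beside the share of all genes are therefore no independent check.

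The ventx genes encode homeodomain repressors that keep ventral fate and hold organizer genes off. They are related genes that neighbour each other on one chromosome in the RefSeq annotation of the assembly UCB_Xtro_10.0, so reads could be split among them. ventx1.1 had 6424, 5091 and 4127 (Nodal-LOF) against 4566, 3981 and 2831 (Nodal-BMP-LOF) normalized exon counts in replicates 1, 2 and 3. Each Nodal-BMP-LOF library was below its same-numbered partner, while the groups overlapped and replicate 3 was low in both. The log2 fold change was -0.46 ± 0.04 (SE), adjusted p = 4.83e-05. ventx2.1, the most abundant member in counts, had 12380.3, 9704 and 6793 (Nodal-LOF) against 9406, 8068 and 5162 (Nodal-BMP-LOF). It too was lower in 3 of 3 pairs with overlapping groups, at -0.35 ± 0.03 (SE), adjusted p = 7.78e-05. ventx1.2 had 1218, 937 and 966 (Nodal-LOF) against 999, 829 and 683 (Nodal-BMP-LOF), a log2 fold change of -0.32 ± 0.07 (SE) and an adjusted p of 0.0138. ventx2.2 was lower by a log2 fold change of -0.24 and ventx3.1 by -0.26, both in 3 of 3 pairs. ventx3.2 was the exception, at 0.18 ± 0.14 (SE), adjusted p = 0.518, higher in 2 pairs and lower in 1.

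Among the feedback inhibitors, bambi, a pseudoreceptor that lacks the kinase domain, had 7009.5, 5994 and 4855 (Nodal-LOF) against 5262, 4998 and 3301 (Nodal-BMP-LOF). Every pair went down and replicate 3 was lowest in both groups, with a log2 fold change of -0.41 ± 0.05 (SE), adjusted p = 0.000282. smad7, an inhibitory Smad, had 1263, 1186 and 907 (Nodal-LOF) against 998, 893 and 678 (Nodal-BMP-LOF), again lower in 3 of 3 pairs, at -0.39 ± 0.06 (SE), adjusted p = 0.00171. szl, a secreted inhibitor of the proteases that cleave Chordin, had the largest fitted fall of the list and the least even one, with 1676, 1217 and 699 (Nodal-LOF) against 960.3, 1227 and 270.2 (Nodal-BMP-LOF). Replicates 1 and 3 fell well below their partners and replicate 2 did not, and the log2 fold change of -0.65 ± 0.17 (SE) carried an adjusted p of 0.0314. smad6, another inhibitory Smad, had 1409.6, 1769 and 1686 (Nodal-LOF) against 1507, 1783 and 1662 (Nodal-BMP-LOF), with no call at 0.03 ± 0.05 (SE), adjusted p = 0.808.

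The id genes encode helix-loop-helix proteins that block differentiation factors. id3, the most abundant listed target, had 32885, 29301 and 25729 (Nodal-LOF) against 28770.3, 25665 and 20767 (Nodal-BMP-LOF). The pairs fell by similar amounts, at -0.23 ± 0.03 (SE), adjusted p = 0.00041. id2 had 2708, 2730.3 and 3388 (Nodal-LOF) against 2218, 2513 and 3004 (Nodal-BMP-LOF) and a log2 fold change of -0.19 ± 0.04 (SE), adjusted p = 0.0205, lower in 3 of 3 pairs. The homeobox genes msx1 and msx2 were not called, at 0.11 ± 0.22 (SE) and 0.21 ± 0.22 (SE). Both had counts of 145.6 or less, were higher in 2 pairs and lower in 1, and changed sign when a replicate was left out of the 24-library fit. Over the summed counts of the list, the libraries held 75202, 64488 and 54723 without LDN193189 and 61640, 55866 and 43028 with it. The plot of BMP target counts by replicate number gives all 14 genes.

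**Figure D1:**
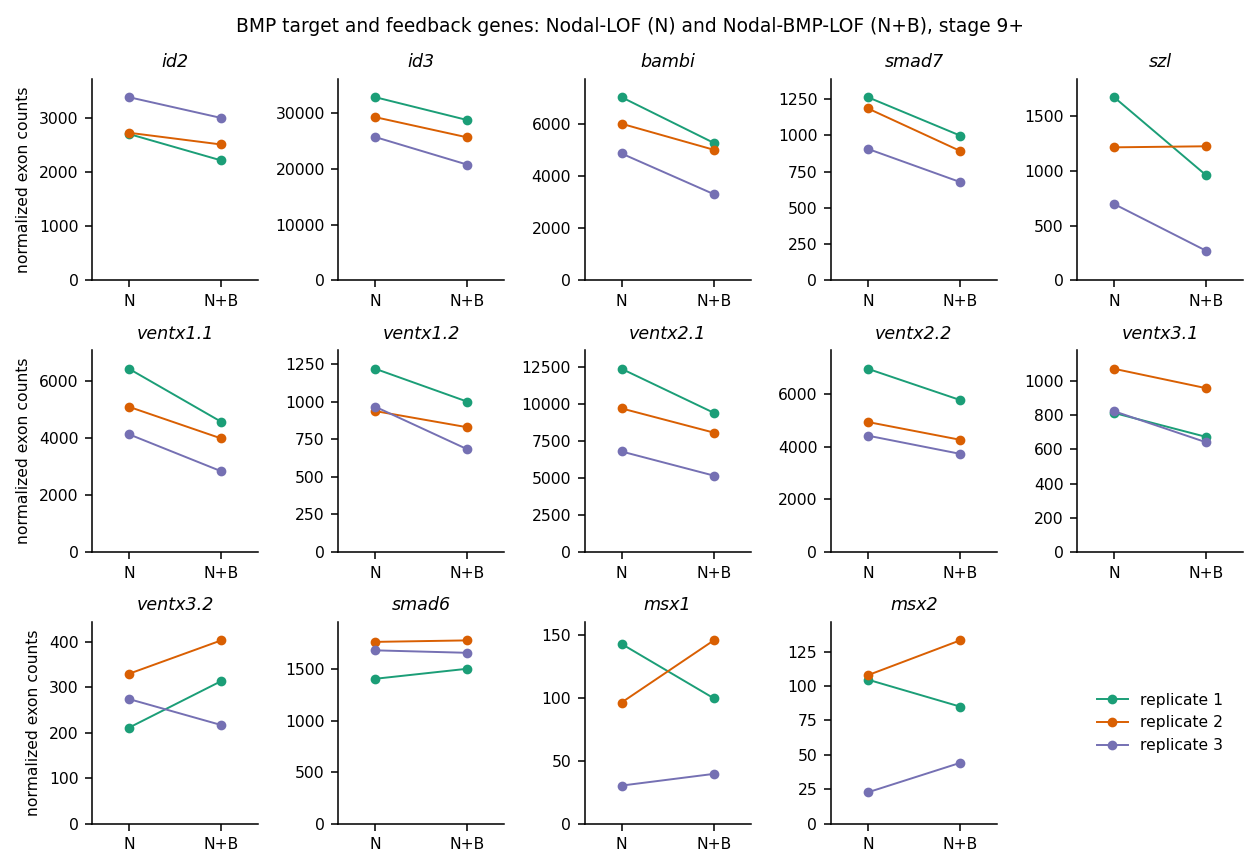
Normalized exon counts (y axis, from 0) of the 14 BMP target and feedback genes tested, in Nodal-LOF (N) and Nodal-BMP-LOF (N+B) embryos at stage 9+, with one line for each replicate number. In the panels of the genes called lower all 3 lines go down except in that of szl, while ventx3.2, smad6, msx1 and msx2 have lines in both directions.

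Of the ligand, receptor and transducer genes tested, none was called lower, beside 6.8% of all genes. At that share, so few genes could hold no call. Of 6 ligand genes tested, 0 were called lower and 2 higher, against 5.4% for all genes. bmp4, a ventral ligand, had 4935, 3937 and 3298 (Nodal-LOF) against 5697, 5612 and 3591 (Nodal-BMP-LOF), higher in 3 of 3 pairs, with a log2 fold change of 0.28 ± 0.06 (SE) and an adjusted p of 0.011. bmp7.2, another ligand, had 10343, 8037 and 11558 (Nodal-LOF) against 12709, 10811 and 13335 (Nodal-BMP-LOF), at 0.31 ± 0.04 (SE), adjusted p = 0.000405. bmp2, gdf2, admp and admp2 were not called, between -0.12 and 0.21. Of 9 genes for receptors and intracellular transducers, 1 was called higher and 0 lower, against 5.4% and 6.8% of all genes. The call was smad4.1, the shared partner Smad, at 0.24 ± 0.05 (SE), adjusted p = 0.00991. smad1, the main BMP effector, was at 0.01 ± 0.03 (SE), acvr1 at -0.04 ± 0.04 (SE) and bmpr1a at 0.08 ± 0.04 (SE), none called. Of 9 extracellular regulators tested, 2 were called lower, against 6.8% of all genes, and 1 higher. The count lower was 1 without replicate 1, 1 without replicate 2 and 1 by DESeq2. dand5, a secreted antagonist of Nodal and BMP, had 1439, 1435 and 1424 (Nodal-LOF) against 1004, 1236 and 1063 (Nodal-BMP-LOF), the groups did not overlap, and the log2 fold change was -0.38 ± 0.06 (SE), adjusted p = 0.00278. twsg1, which binds BMP and Chordin together, was lower at -0.14 ± 0.05 (SE), adjusted p = 0.0851. chrd, which encodes the antagonist Chordin, was higher in 3 of 3 pairs with 1062, 1546 and 2099.5 (Nodal-LOF) against 1598, 2039 and 2367 (Nodal-BMP-LOF), at 0.38 ± 0.07 (SE), adjusted p = 0.00497, from a level that was 16% of DMSO in Nodal-LOF.

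Epidermal and ventral factors were lower in part. Of 22 tested, 9 were called lower (6.8% of all genes) and 1 higher, with a median log2 fold change of -0.29. krt5.7, an early epidermal keratin gene, had 7089, 7626 and 2179 (Nodal-LOF) against 3568, 5594 and 1329 (Nodal-BMP-LOF). It was lower in 3 of 3 pairs, and replicate 3 held far less of it in both groups, so the groups overlapped. The log2 fold change was -0.72 ± 0.07 (SE), adjusted p = 0.00012. grhl3 and grhl1, which encode Grainyhead-like activators of epidermal genes, were lower at -0.53 ± 0.05 (SE) and -0.40 ± 0.04 (SE). For grhl1 the groups did not overlap, with 3042, 4069 and 3392 (Nodal-LOF) against 2364, 2982 and 2593 (Nodal-BMP-LOF), adjusted p = 0.00012. foxi4.2, a forkhead factor of the ectoderm, had 14098, 10793 and 7643 (Nodal-LOF) against 10641, 9066 and 4977 (Nodal-BMP-LOF) and a log2 fold change of -0.42 ± 0.05 (SE), adjusted p = 0.000381. klf17 at -0.34, tfap2c at -0.21, dlx5 at -0.53, tbx3 at -0.42 and krt18 at -0.10 were the other calls in that direction. The 1 call higher was foxi1, a forkhead factor of ionocytes, with 3760.1, 2156 and 511 (Nodal-LOF) against 4208, 2362 and 798 (Nodal-BMP-LOF), at 0.27 ± 0.08 (SE), adjusted p = 0.049. The keratin genes krt8 and krt12 were at 0.05 and -0.02 and gata2, a ventral factor, at 0.14, none of them called. With replicate 1, 2 or 3 left out, 6, 8 and 7 of the list were called lower, and DESeq2 called 5.

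Neural factors went the other way. Of 21 tested, 15 were called higher and 0 lower, against 5.4% of all genes called higher, and the median log2 fold change was 0.53. This list too was chosen with earlier results of these data known. With replicate 1, 2 or 3 left out, 11, 13 and 14 were called higher, and by DESeq2 11. sox2, which marks neural progenitors, had 1923, 2312 and 1558 (Nodal-LOF) against 3526, 4118 and 2075 (Nodal-BMP-LOF). All pairs went up, and the Nodal-BMP-LOF library of replicate 3 stayed below 1 of the Nodal-LOF libraries. The log2 fold change was 0.71 ± 0.07 (SE), adjusted p = 0.000115. zic1, a zinc-finger factor of the early neural plate, had 6737, 5116 and 5511 (Nodal-LOF) against 10009, 9368 and 7672 (Nodal-BMP-LOF), with no overlap between groups, at 0.64 ± 0.06 (SE), adjusted p = 4.69e-05. foxd4l1.1, a forkhead gene of the immature neural ectoderm and one of a pair of near-identical copies, had 1685, 1586 and 1494 (Nodal-LOF) against 3336, 2890.5 and 2297 (Nodal-BMP-LOF), again without overlap. Its log2 fold change was 0.82 ± 0.06 (SE), adjusted p = 1.77e-05. hesx1, an anterior neural repressor, had the lowest counts of these, 24.1, 32.8 and 27.4 (Nodal-LOF) against 59.6, 104 and 78.1 (Nodal-BMP-LOF), and a log2 fold change of 1.50 ± 0.23 (SE), adjusted p = 0.00187. sox11, a SoxC gene of neural progenitors, was higher at 0.44 ± 0.03 (SE), lhx5 at 0.52 ± 0.05 (SE) and irx2 at 0.74 ± 0.07 (SE), each in 3 of 3 pairs. gmnn, which encodes the replication inhibitor Geminin, was at 0.02 ± 0.02 (SE), adjusted p = 0.695, and zic2 at -0.08 ± 0.04 (SE), adjusted p = 0.304. The groups were without overlap for 5 of 22 neural genes measured over the 24 libraries, against 2.43% of all genes. Summed over the list, counts were 90480, 82357 and 89354 without LDN193189 and 108602, 102998 and 100894 with it, all higher.

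**Figure D2:**
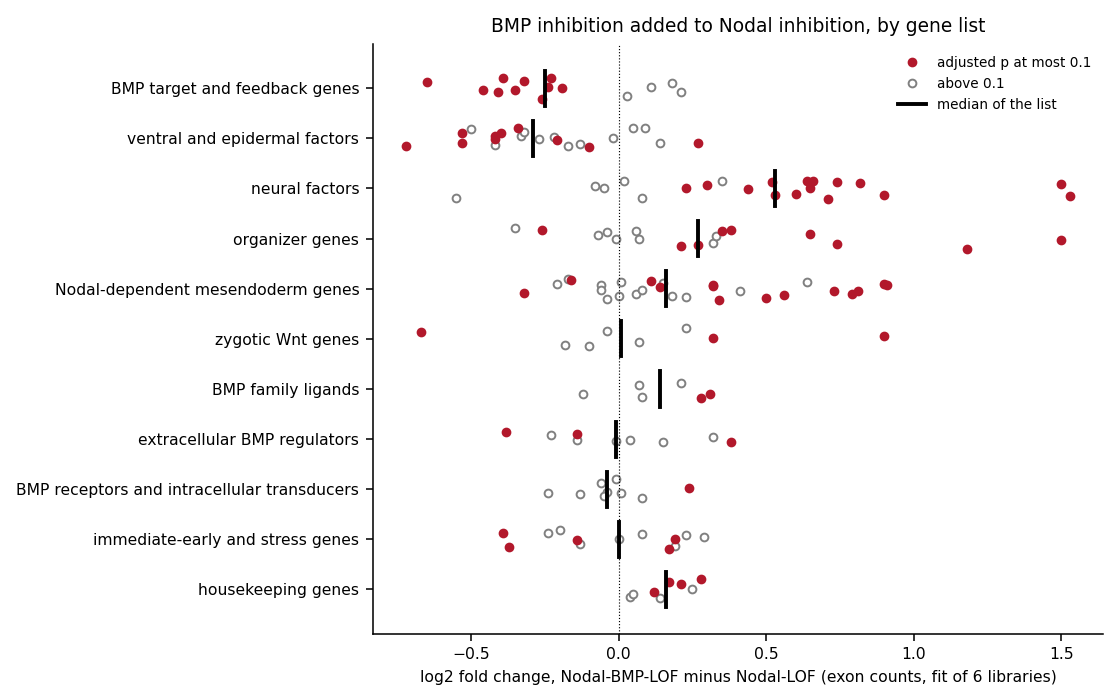
Log2 fold change of exon counts, Nodal-BMP-LOF minus Nodal-LOF in the 6-library fit (x axis), for each gene of 11 lists (rows), with filled points for an adjusted p of at most 0.1 and a bar at the median of each list. The BMP target and epidermal lists have medians of -0.25 and -0.29, the neural list 0.53 and the organizer list 0.27.

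Organizer and mesendoderm genes were partly higher, several of them from low levels under the Nodal inhibitor. Of 17 organizer genes, 8 were called higher and 1 lower (median 0.27), and of 28 mesendoderm genes 11 were called higher and 2 lower (median 0.16), against 5.4% and 6.8% of all genes. The housekeeping list, given below, had the same median as the mesendoderm list (0.16), with 4 of 8 called higher. Whether these lists differ from it was not tested. Without replicate 1, 2 or 3, 6, 8 and 7 organizer genes and 9, 10 and 8 mesendoderm genes were called higher, and by DESeq2 7 and 8. The calls lower were near the share over all genes for mesendoderm, and became 1, 0 and 0 in either list without replicate 1, 2 or 3 and 0 by DESeq2. otx2, a head and anterior neural homeobox gene, had 213, 201 and 63.3 (Nodal-LOF) against 511, 426 and 144 (Nodal-BMP-LOF) at 1.18 ± 0.11 (SE), adjusted p = 4.97e-05. These counts were a small share of those in DMSO embryos, 8913, 6215 and 4885. foxa4, a forkhead gene of the organizer and floor plate, had 3894, 4275 and 2616 (Nodal-LOF) against 6702, 6232 and 4054 (Nodal-BMP-LOF), with a log2 fold change of 0.65 ± 0.05 (SE), adjusted p = 1.67e-05. lhx1 was higher at 0.74 ± 0.12 (SE), gsc at 0.35 ± 0.10 (SE) and frzb, a secreted Wnt inhibitor, at 0.27 ± 0.06 (SE). nodal3.1, an organizer gene under maternal Wnt control, was lower at -0.26 ± 0.06 (SE), adjusted p = 0.026, and one of several near-identical copies. In the mesendoderm list, eomes had 2618, 3576 and 1670.4 (Nodal-LOF) against 3654, 5151 and 2654 (Nodal-BMP-LOF), at 0.56 ± 0.05 (SE), adjusted p = 3.25e-05. tbxt (Brachyury), a T-box gene of all mesoderm, had 6545, 6058 and 3056 (Nodal-LOF) against 9589, 9015 and 3914 (Nodal-BMP-LOF), at 0.50 ± 0.04 (SE), adjusted p = 3.99e-05. lefty, a Nodal target and Nodal antagonist, was higher at 0.73 ± 0.07 (SE) and mespb at 0.90 ± 0.16 (SE). sox17b, an endoderm factor, was lower at -0.16 ± 0.05 (SE) and nodal2 at -0.32 ± 0.10 (SE). cer1, hhex, sox17a, mixer and gata5 were among the 15 not called.

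Of 8 zygotic Wnt genes, 1 was called lower and 2 higher, against 6.8% and 5.4% of all genes. The 2 calls higher became 0 without replicate 1, 0 without replicate 2 and 0 by DESeq2, while 1 was called lower in each of these. cdx1, a posterior homeobox gene, had 587, 700.5 and 247 (Nodal-LOF) against 431, 435 and 124 (Nodal-BMP-LOF), lower in 3 of 3 pairs at -0.67 ± 0.10 (SE), adjusted p = 0.00189. Its relative cdx4 was higher at 0.32 ± 0.08 (SE), and cdx2 was at 0.07 ± 0.12 (SE), not called. sp5, a zinc-finger Wnt target gene, had 43.2, 60.2 and 41.6 (Nodal-LOF) against 95.7, 118 and 61.6 (Nodal-BMP-LOF), all higher in Nodal-BMP-LOF, at 0.90 ± 0.20 (SE), adjusted p = 0.0166. wnt8a, the zygotic Wnt ligand, was at -0.04 ± 0.04 (SE), adjusted p = 0.61. Of 13 immediate-early and stress genes, 3 were called lower and 2 higher (median 0), against the same shares of all genes, and 2 lower and 0 higher by DESeq2, with gadd45a lower at -0.37 ± 0.07 (SE). Of 8 housekeeping genes, 4 were called higher and 0 lower, against 5.4% and 6.8% of all genes, with a median of 0.16. DESeq2 called 3 of them higher. eef1a1, a translation elongation factor, was higher at 0.21 ± 0.02 (SE) and actb, cytoplasmic actin, at 0.28 ± 0.05 (SE). The counts of actb were 3962, 4312 and 4445 (Nodal-LOF) against 4874, 5829.8 and 4746 (Nodal-BMP-LOF), all higher in Nodal-BMP-LOF.

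The largest called changes held no listed BMP target. These changes were taken among genes that had a symbol, a mean of 50 normalized counts or more and the same sign in all 3 pairs. That rule left out szl, at -0.65. The 8 falls were ankrd63 (-0.95), loc375190 (-0.84), pif1 (-0.76), krt5.7, cdx1, tbpl2 (-0.63), tnfrsf19 (-0.62) and b4galt6 (-0.62). pif1, which encodes a DNA helicase, had 1459.8, 1306 and 1659 (Nodal-LOF) against 694, 727 and 1262 (Nodal-BMP-LOF) without overlap. tbpl2 encodes the oocyte form of the TATA-binding protein, and its input RNA declined with stage, as did that of pif1 and tnfrsf19. The 8 rises were hesx1, mid1ip1 (1.38), otx2, myf5 (1.16), gli1.1 (1.13), sebox (1.08), crx (1.05) and pcdh8.2 (0.95). crx, an otx-related homeobox gene, had the lowest p of all genes in the 6-library fit, with 3212, 2215 and 1556 (Nodal-LOF) against 6133, 5097 and 3183 (Nodal-BMP-LOF). It was higher in every replicate pair, and replicate 3 of Nodal-BMP-LOF lay just under replicate 1 of Nodal-LOF. The log2 fold change was 1.05 ± 0.05 (SE), adjusted p = 4.92e-07, and the Nodal-LOF mean was 23.5% of that in DMSO. In the 24-library fit its log2 fold change was 1.04 ± 0.51 (SE). gli1.1, a Hedgehog-pathway transcription factor, had 68.4, 70.8 and 50.1 (Nodal-LOF) against 203, 119.7 and 101 (Nodal-BMP-LOF), and the muscle determination gene myf5 had 46.2, 52.8 and 13.2 (Nodal-LOF) against 97.7, 130.3 and 26.6 (Nodal-BMP-LOF).

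Unspliced RNA gave a second reading at lower depth. On introns, 0 of 11499 genes passed over the 24 libraries (edgeR, 518 at an unadjusted p under 0.05, background 0%). The 6-library fit called 202 of 9735 (2.07%), 128 lower (1.31%) and 74 higher (0.76%), and DESeq2 called 30. The 6-library count was 134, 104 and 298 without replicates 1, 2 and 3. Of 14 BMP targets tested on introns, 4 were called lower and 0 higher, with a median log2 fold change of -0.63 beside -0.01 for all genes, and for id2, ventx1.1, ventx1.2 and the uncalled msx2 the groups did not overlap, all lower, against 3.71% of all genes. bambi introns had 357, 248 and 149.6 (Nodal-LOF) against 168, 156 and 78.8 (Nodal-BMP-LOF) normalized counts, at -0.90 ± 0.13 (SE), adjusted p = 8.48e-05, and here replicate 3 of Nodal-LOF lay below 2 of the Nodal-BMP-LOF libraries. ventx1.2 introns had 274, 210.4 and 187 (Nodal-LOF) against 134, 93.5 and 101 (Nodal-BMP-LOF), at -1.04 ± 0.14 (SE), adjusted p = 1.57e-05. ventx1.1 introns had 296, 194 and 141 (Nodal-LOF) against 115, 127 and 78.8 (Nodal-BMP-LOF), at -0.95 ± 0.15 (SE), adjusted p = 0.000209. id2 introns had 161, 177 and 131 (Nodal-LOF) against 75.7, 109.7 and 43.5 (Nodal-BMP-LOF), at -1.09 ± 0.16 (SE), adjusted p = 0.00014. For all 4, the intron fall was larger than the exon fall of the same gene, most of all for id2, at -0.19 on exons. These 4 were picked by their call on introns, which favours large intron changes. Of the other targets called lower on exons, ventx2.2 and ventx3.1 also fell more on introns, while id3, smad7, szl and ventx2.1 fell less.

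Epidermal factors followed on introns, with 9 of 20 called lower and 0 higher (median -0.37), against 1.31% and 0.76% of all genes. krt5.7 introns had 312, 381 and 115 (Nodal-LOF) against 110.0, 159.5 and 48.9 (Nodal-BMP-LOF), at -1.35 ± 0.14 (SE), adjusted p = 1.51e-07, and those of grhl3 682, 994 and 692 (Nodal-LOF) against 517, 420.1 and 412 (Nodal-BMP-LOF), at -0.81 ± 0.11 (SE), adjusted p = 3.26e-05. Of 10 neural genes with enough intron counts, 2 were called higher, against 0.76% of all genes. For 5 the groups did not overlap, all higher, against 3.99% of all genes. The 2 were zic1 with 58.7, 67.5 and 65.1 (Nodal-LOF) against 115, 139.8 and 112 (Nodal-BMP-LOF), at 0.93 ± 0.16 (SE), adjusted p = 0.000947, and lhx5 at 0.29 ± 0.06 (SE), adjusted p = 0.00674. Mesendoderm genes differed between the readings, with 3 of 20 called lower on introns and 0 higher, against 1.31% and 0.76% of all genes. Of 7 organizer genes tested on introns, 1 was called lower and 0 higher (median 0.08). tbxt introns had 456, 411 and 203 (Nodal-LOF) against 329.9, 309 and 170.3 (Nodal-BMP-LOF), at -0.40 ± 0.11 (SE), adjusted p = 0.0753, opposite in sign to its exons. vegt was at -0.48 ± 0.12 (SE) on introns against 0.11 ± 0.04 (SE) on exons, and frzb at -0.53 ± 0.10 (SE) against 0.27 ± 0.06 (SE). Of 78 genes called on both, 24 were lower on both, 35 higher on both and 19 of opposite sign, among 9286 genes tested on both. spry2, which encodes a feedback inhibitor of FGF signalling, shared the lowest adjusted p on introns with krt5.7. Its introns had 928, 749.7 and 628 (Nodal-LOF) against 465, 333 and 365 (Nodal-BMP-LOF), without overlap, at -1.0 ± 0.10 (SE), adjusted p = 1.51e-07, while its exons were at 0.13 ± 0.04 (SE). Among the largest intron changes were falls of ankrd37 (-1.37), parp3 (-1.23), arhgap17 (-1.21), lamb3 (-1.14) and eda2r (-1.06), none of which was called on exons. The rises included c9orf46 (1.25), crx (1.01), the crx relative otx1 (0.96) and pkdcc.1 (0.84), of which crx, otx1 and pkdcc.1 were called on exons too. spry1, a relative of spry2, was on introns at -0.99 ± 0.16 (SE), adjusted p = 0.000227, and its exons at -0.18 ± 0.07 (SE), not called.

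**Figure D3:**
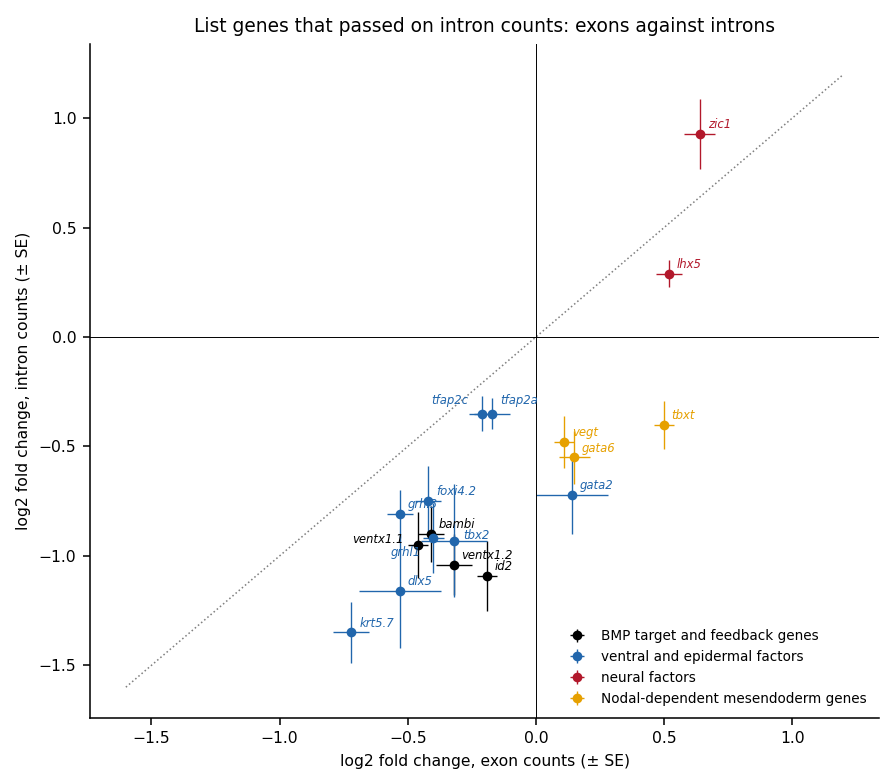
Log2 fold change of exon counts (x axis) against intron counts (y axis), Nodal-BMP-LOF minus Nodal-LOF with SE, for the genes of 4 lists called on introns in the 6-library fit. The points of the BMP targets and the epidermal factors lie below the dotted line of equal change, while tbxt, vegt, gata6 and gata2 are above 0 on exons and below 0 on introns. Genes not called on introns are not drawn, so large intron changes are favoured.

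The exon changes moved with developmental stage. As a measure of stage, the input libraries of total RNA at stages 8+ and 10+ gave the log2 ratio of stage 10+ over 8+. There was 1 library at each stage, and the measure was chosen after the results were seen. The embryos of these input libraries had been injected with thiouridine triphosphate, which labels new RNA. Their RNA was total RNA depleted of ribosomal RNA, unlike the polyadenylated RNA of the stage 9+ libraries. The effect of the injection and of the kind of RNA on the ratio was not tested. Among genes tested over the 24 libraries, in each pair those that gain 2-fold with stage were higher in Nodal-BMP-LOF (542 genes, median log2 ratio 0.24, 0.24 and 0.17) and those that lose 2-fold were lower (788 genes, -0.12, -0.21 and -0.12). Of the genes called lower with a value, 21% lose 2-fold with stage and 1.68% gain, and of those called higher 1% lose and 33.9% gain, beside 7.76% and 5.25% of all 10148 genes of the 6-library fit with a value. Introns had no such pattern, with medians between -0.02 and 0.06 for both sets. The part of a difference in stage between the groups in the called genes was not tested.

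Several BMP targets called lower were genes that gain with stage. Of 13 listed targets with a stage value, 9 gain 2-fold with stage and 1 loses, while 10 of the 14 tested were called lower. In all, 16 genes that gain 2-fold with stage were called lower, namely krt5.7, szl, grhl3, ventx1.1, foxi4.2, gadd45a, ventx2.1, nodal2, ventx1.2, ventx3.1, ventx2.2, id3, stard13, sox17b, cyp27c1 and mex3b. Of these, 7 are listed BMP targets and 3 are listed epidermal factors. id3, for example, gains 3.37 on the log2 scale from stage 8+ to 10+ and ventx1.2 gains 3.30. Among the other targets called lower, id2 loses with stage (-1.74), and smad7 (-0.52) and bambi (0.08) do not gain 2-fold. The part of stage in the values of the targets was not tested. In the other direction, 7 genes that lose 2-fold with stage were called higher, led by hes7.1, a Hairy/E(spl)-type repressor, with 386, 438 and 601 (Nodal-LOF) against 636, 773 and 939 (Nodal-BMP-LOF). Its groups did not overlap, its log2 fold change was 0.72 ± 0.07 (SE), adjusted p = 9.82e-05, and on introns it was 1.28 ± 0.23 (SE). Neural, organizer and mesendoderm genes moved the same way as stage: 8 of 13 neural, 9 of 15 organizer and 18 of 23 mesendoderm genes with a value gain 2-fold, and the part of stage in their values was not tested.

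**Figure D4:**
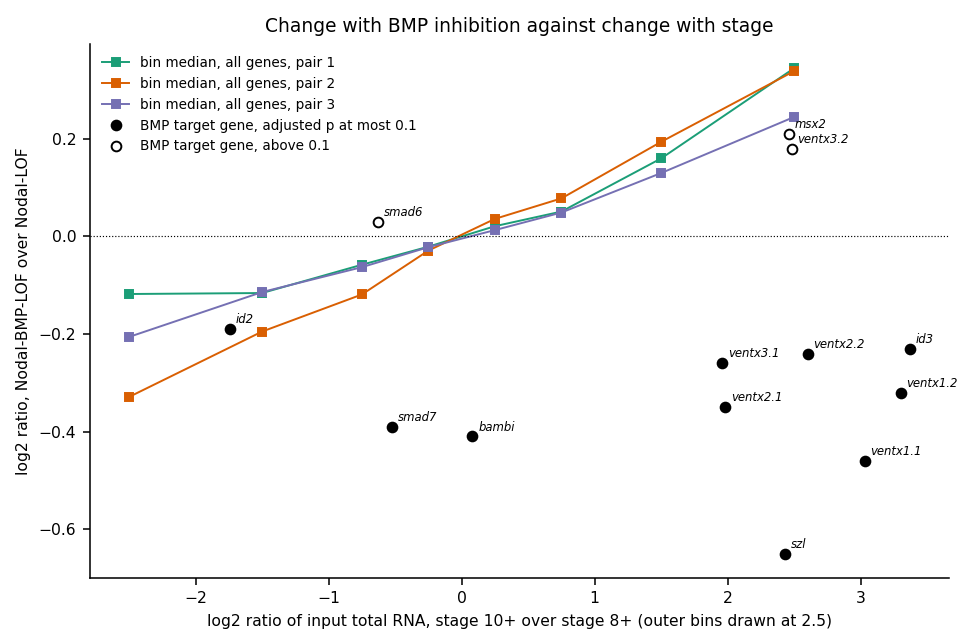
Log2 ratio of Nodal-BMP-LOF over Nodal-LOF on exons (y axis) against the log2 ratio of input total RNA at stage 10+ over 8+ (x axis), as medians of 8 bins of all genes in each replicate pair (lines) and as 6-library fold changes of the BMP targets (points). The lines climb in all 3 pairs, from -0.118, -0.329 and -0.206 in the lowest bin to 0.345, 0.339 and 0.245 in the highest, while the ventx1, ventx2, ventx3.1, id3 and szl points lie below 0 on the right.

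On the scale of zygotic genome activation as a whole, the addition of LDN193189 moved few genes. Among 2757 measured genes that carry RNA polymerase II along their length by the midblastula transition (MBT, when bulk transcription begins), by the list in the study's supplement, 0.29% were lower by 1.5-fold in the means of 3 libraries (8 genes) and 2.14% were higher (59 genes). Within single replicate pairs the shares were 1.423% ± 0.213 lower and 3.49% ± 1.125 higher (SD, n = 3). Genes with under 0.1 TPM of maternal RNA were higher more often, 15.707% of 191 against 1.13% of the other 2566, and lower in 1.571% against 0.195%. On introns the order turned, with 2.834% of 2223 genes lower and 1.305% higher. No test goes with these shares.

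BMP inhibition was also measured without the Nodal inhibitor, in uninjected embryos with DMSO (the solvent) or with 10 µM LDN193189 alone (BMP-LOF), which share no library with the other comparison. The fit of all 24 libraries called 0 genes as different between (Nodal-BMP-LOF minus Nodal-LOF) and (BMP-LOF minus DMSO), by edgeR (859 at an unadjusted p under 0.05). A fit of the 12 libraries of these 4 groups, chosen after the results were seen, called 989 of 15477 (6.39%), 463 with a higher value under the Nodal inhibitor (2.99%) and 526 with a lower one (3.4%). In that fit the BMP targets had a median of -0.70 without SB431542 and -0.24 with it. Of 15 BMP targets, 10 were called lower without SB431542 (background 1.46%) and 5 with it (background 0.646%), and none was called higher in either (backgrounds 0.724% and 0.846%). The difference was called for 8 of the 15, with 7 values higher under SB431542 (bambi, msx1 and 5 ventx genes) and 1 lower (id2), and its median was 0.42 beside 0 for all genes. Several of the 8 were already lower with SB431542 alone. Nodal-LOF means were 43.4% of DMSO for msx1, 54.7% for ventx1.2, 75.8% for ventx3.1, 76.1% for ventx2.2, 80.3% for ventx1.1 and 82.2% for ventx2.1. Those of bambi and id2 were 106% and 118%. The part of the starting level in the differences was not tested. ventx2.1 had 15195, 11521 and 8422 counts in DMSO and 8618, 7300.2 and 4690.2 in BMP-LOF, at -0.77 ± 0.04 (SE), against -0.35 ± 0.04 (SE) under SB431542. The difference was 0.42 ± 0.06 (SE), adjusted p = 0.0253. ventx1.2 had 2897, 1513 and 1302 in DMSO and 1020.1, 626 and 507 in BMP-LOF, and its difference was 1.06 ± 0.19 (SE), adjusted p = 0.0449. On exons id2 ran opposite, at 0.10 ± 0.06 (SE) without SB431542 and -0.20 ± 0.06 (SE) with it, a difference of -0.30 ± 0.09 (SE), adjusted p = 0.0864. Its introns were lower in both, at -1.39 ± 0.18 (SE) without SB431542 and -1.08 ± 0.18 (SE) with it. The intron difference, 0.31 ± 0.26 (SE), had the other sign and was not called.

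**Figure D5:**
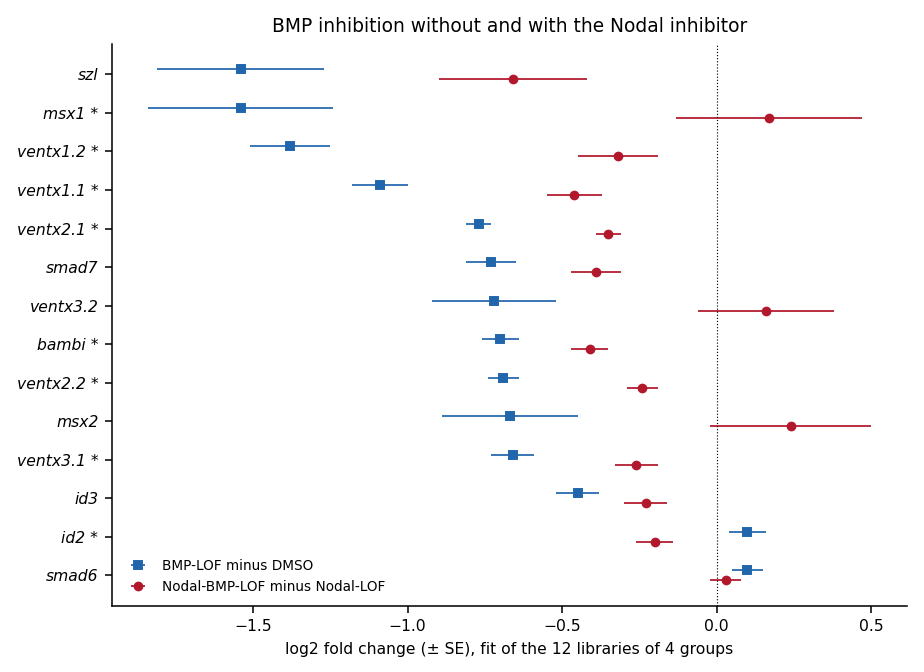
Log2 fold change with SE (x axis) of 14 BMP targets on LDN193189 without the Nodal inhibitor (squares, BMP-LOF minus DMSO) and with it (circles, Nodal-BMP-LOF minus Nodal-LOF), in the fit of 12 libraries, with an asterisk where the difference has an adjusted p of at most 0.1. The circles of id3, bambi, smad7, szl and 5 ventx genes lie between the squares and 0, while those of ventx3.2, msx1, msx2 and smad6 lie above 0. For id2 the circle lies below 0 and the square above it.

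The same 12-library difference moved with stage, and the effect without SB431542 went the other way. In BMP-LOF minus DMSO, genes that gain with stage had medians of -0.25, -0.12 and -0.16 in the 3 pairs and genes that lose had 0.26, 0.08 and 0.12. The median difference was 0.39 for 540 gaining genes, with 181 called higher and 2 lower, and -0.29 for 788 losing genes, with 165 called lower and 3 higher. Over all genes, 2.99% were called higher and 3.4% lower on exons. The median difference of the BMP targets was 0.42, and the quartiles of the gaining genes were 0.20 and 0.68. Of 13 targets with a stage value, 9 gain 2-fold, while bambi (0.08) and id2 (-1.74), both with a called difference, do not. The part of stage in the differences of the targets was not tested. On introns, where the medians of gaining and losing genes were 0.10 and -0.03, the difference was called for 0 of 14 BMP targets, with a median of 0.27 (backgrounds 0.0937% lower and 0.394% higher). Among the 5 lowest p, crx was at -0.21 without SB431542 and 1.06 with it, a difference of 1.26 ± 0.10 (SE), adjusted p = 0.000522. lrig3, a leucine-rich repeat membrane protein gene, differed by 0.83 ± 0.08 (SE) and has2, hyaluronan synthase, by 0.68 ± 0.07 (SE), both with adjusted p = 0.0019. ventx2.1, above, and pkdcc.1, a secreted kinase gene, at 1.18 ± 0.16 (SE), adjusted p = 0.0253, made up the 5. On introns the difference was called for crx, at 1.09 (edgeR, adjusted p = 0.0495). It was not called for pkdcc.1 (0.98), ventx2.1 (0.40), lrig3 (-0.09) or has2 (-0.32).

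BMP inhibition was measured also in embryos injected as zygotes with 5 ng of β-catenin morpholino, which blocks canonical Wnt signalling (Wnt-LOF), with or without SB431542. No difference from these passed on exons. Against Wnt-BMP-LOF minus Wnt-LOF, the 24-library fit called 0 of 16001 genes (edgeR, 461 at an unadjusted p under 0.05) and the 12-library fit 0 of 15466 (434). Against Wnt-Nodal-BMP-LOF minus Wnt-Nodal-LOF, they called 0 (335) and 0 of 15443 (341). On introns 1 gene passed in the Wnt comparison, pepd, a peptidase gene, at 1.34, adjusted p = 0.0549. In Wnt-Nodal-BMP-LOF minus Wnt-Nodal-LOF, genes that gain with stage had exon medians of -0.02, -0.06 and 0.04 in the 3 pairs, beside 0.24, 0.24 and 0.17 without the morpholino, a contrast for which no test was run.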

How the data were processed

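Polyadenylated RNA of whole embryos was sequenced in pairs of reads, which the authors aligned with STAR 2.5.3a and sorted with SAMtools 1.3.1. The deposited values are raw exon and intron counts per gene, not normalized, counted without regard to strand, so overlapping, antisense and near-identical genes can share reads. The input libraries are deposited raw counts too, aligned by the authors with Bowtie2 2.1.0. For replicates 2 and 3 the labels give the BMP inhibitor a later serial number, read here as LDN193189, the name in the methods. Symbols came from a deposited table and supplementary tables for 12827 of 28148 genes.

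Here edgeR 4.0.16 (limma 3.58.1, R 4.3.3) fitted condition and replicate number to all 24 stage 9+ libraries (TMM, filterByExpr, quasi-likelihood F test, Benjamini-Hochberg over all genes, adjusted p at most 0.1). The methods say that triplicates cover variation between clutches and that treated and control embryos of an experiment came from the same mothers, and the replicate number, which they do not tie to a clutch in words, was the block. Same-numbered libraries of both groups deviated together from their group means (r = 0.767 to 0.847 across genes, which are not independent replicates, against -0.54 to -0.238 for different numbers). Deviations from a group's own mean cancel out, so negative values for different numbers follow in part from positive ones for the same number. These correlations cannot tell clutch from anything else that same-numbered libraries share. Each SE is the absolute log2 fold change divided by the square root of the quasi-likelihood F statistic of the same fit. Normalized counts were scaled by TMM to the mean library of the 24. Named genes were the called list members, all BMP targets, the 8 largest changes per direction, and the 5 lowest p of each difference. Since the fit of 24 libraries called none, that rule was applied to the fit of the 6 libraries. fzd4, spry1, spry2, hes7.1, the largest intron changes and some list members not called were added after their values were seen. One gene is not reported here by name. Stage ratios needed at least 50 input counts. Alternatives included DESeq2 1.42.0. Scripts were tested on simulated data. The list members and gene lists were chosen with earlier results of these data known. The 28 T-box and nascent RNA samples were not used beyond the input libraries and symbols. Columns of the authors' own comparisons in the supplement were not used.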

Additional observations from a re-analysis of the deposited data

Results flagged for a closer look

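The effect of LDN193189 differed between embryos with and without SB431542 for 989 of 15477 genes (6.39%) in the 12-library fit of 4 groups (edgeR, adjusted p at most 0.1, n = 3 per group), and 29 of them, followed by name across settings, are given here. None passed in the fit of all 24 libraries, where 859 of 16001 genes had an unadjusted p under 0.05. Values are differences of log2 fold changes, with SB431542 minus without. Among BMP targets, id2 was at -0.30, bambi at 0.29, ventx1.1 at 0.62, ventx1.2 at 1.06, ventx2.1 at 0.42, ventx2.2 at 0.45, ventx3.1 at 0.39 and msx1 at 1.70. On introns these were, in the same order, at 0.31, -0.18, 0.13, 0.23, 0.40, 0.51, -0.77 and 0.39, none of them called. Of the pathway's other genes, dand5 was at -0.53 and smad4.1 at 0.40.

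In the neural and organizer lists, foxd4l1.1 was at 0.43, otx2 at 1.62, foxa4 at 0.91, lhx1 at 1.26 and frzb at 0.68. In the mesendoderm list, eomes was at 0.87, tbxt at 0.94, lefty at 0.98, mespb at 1.95, snai1 at 0.57, gata4 at 0.91 and vegt at 0.32. On introns the difference was called for 0 of 23 mesendoderm and 0 of 12 organizer genes, against 0.394% of all genes called higher and 0.0937% lower. The intron medians of these 2 lists were 0.17 and 0.46, beside 0.66 and 0.58 on exons. The caudal genes cdx1, cdx2 and cdx4 were at 1.17, 1.82 and 1.36. crx at 1.26, lrig3 at 0.83, has2 at 0.68 and pkdcc.1 at 1.18 are the others. Further genes named in the report passed as well, for example gli1.1 at 1.43. Of the genes that gain 2-fold with stage, 181 of 540 were called higher in this difference, against 2.99% of all genes. The parts of stage and of the starting level under SB431542 in these 29 values were not tested.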

How the results depend on the processing

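Choice of libraries and block decided the counts of calls. On exons, 0 genes over 24 libraries became 1786 over the 6 alone, 231 over 12 without the morpholino and 680 by DESeq2 on the 6. It stayed 0 with no replicate block, other size factors and no filter. The replicates left out in turn gave 0 to 2 over 24 libraries (the 2, lhx5 at 0.60 and alcam at 0.62, without replicate 1) and 849, 713 and 1661 over the 6. The replicate block mattered most within the 6: without it they gave 0 on exons and 0 on introns (233 and 208 at an unadjusted p under 0.05). On introns the counts were 15 with no filter (14 lower), 202 over 6 libraries, 55 over 12, 30 by DESeq2, and 134, 104 and 298 over the 6 as replicates 1, 2 and 3 were left out. The 12-library difference from BMP inhibition alone was 989 on exons and 52 on introns, and that from Wnt loss was 1 on introns. The share of MBT-active genes lower by 1.5-fold was 0.396% to 0.542% without a replicate and 2.834% on introns, and at 2-fold 0.036%. The share higher was 0.218% at 2-fold and 2.135% to 3.135% without a replicate. The cause of these shifts was not tested. The fits of 12 libraries, of the 6 without the block or a replicate, and the stage ratio were chosen after seeing the data.

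Of 70 genes examined, 61 passed over the 6 libraries and 33 over 12, beside 12.2% of all genes over the 6 and 231 of 15477 over the 12. Many of the 70 were named because the 6-library fit called them, so their passing there was set in advance. The 12 libraries include the same 6, so neither count is a check on these genes. With no replicate block 0 passed over the 24 libraries, as with it, and 0 over the 6. On introns the following turned sign (values over 24, then 6 libraries), namely ventx3.2 -0.37 and -0.39, msx1 -0.66 and -0.69, msx2 -1.69 and -1.69, tbpl2 0.09 and 0.16, b4galt6 0.44 and 0.42, smad4.1 -0.09 and -0.10, lhx1 -0.59 and -0.61, frzb -0.51 and -0.53, eomes -0.15 and -0.16, tbxt -0.41 and -0.40, gata4 -0.23 and -0.22, cdx2 -1.17 and -1.18, cdx4 -0.19 and -0.21, lrig3 0.00 and -0.01, has2 -0.34 and -0.35, spry2 -0.97 and -1.0, gata2 -0.70 and -0.72, vegt -0.49 and -0.48. pif1 turned over 24 libraries (0.01) and chrd over 6 (-0.01). Leaving out replicates in turn gave id4 -0.94 to 1.01 (0.05 by DESeq2), msx1 -0.30 to 0.53, msx2 -0.01 to 0.51, cdx2 -0.05 to 0.22 and gata2 -0.23 to 0.49 over 24 libraries. smad6 came to 0.00 without replicate 1, over 24 and over 6. Over 6 libraries, ventx3.2 was 0.00 without replicate 1, msx1 -0.20 and gata2 -0.09 without replicate 2, and cdx2 -0.06 without replicate 3.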
